A study of Rattus norvegicus with 12 samples.

Results

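Genes that mark single layers of the neocortex can tell cortical tissue from its neighbours, and 7 of them were followed here in hippocampal RNA of blast-exposed rats, namely Tbr1, Fezf2, Foxp2, Rorb, Cux2, Rprm and Lamp5. They were picked by name from the 17494 genes of the count table, with the levels of some of them in these same rats already known, and Tbr1 is among the genes the study listed at an unadjusted p under 0.05. The difference between treatments is therefore given for them as a description, without a test. The variation among rats of the same treatment was not used in the choice and was tested.

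The 12 rats were male Long Evans animals of WT genotype. All received 3 blasts, 1 a day, at 10 weeks of age and were sacrificed 29 weeks after blast. Of these, 6 ate chow with boldine, an alkaloid of the boldo tree, from the second week after blast (blast-boldine), and 6 ate the same chow without it (blast-controls). Rats not exposed to blast are not part of the data, so both groups carry the injury and a level in uninjured tissue was not measured. The labels call the tissue brain and the methods call it hippocampus. Total RNA was freed of ribosomal RNA and made into stranded libraries, with 1 library for each rat.

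Neocortex is built in layers, and each layer holds excitatory neurons that send their axons to different targets. Layers 2 and 3 link cortical areas, layer 4 receives input from the thalamus, layer 5 projects to the brainstem and spinal cord, and layer 6 projects back to the thalamus. The hippocampus lies under the neocortex and is parted from it by white matter, with the subiculum and entorhinal cortex at its border. Layer markers are not silent outside neocortex: Tbr1 and Fezf2 are also made by glutamatergic neurons of other forebrain regions, and Lamp5 by a class of interneurons. A bulk level therefore does not name its source, and fewer cells of a type and less RNA per cell cannot be told apart in it.

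The totals lay between 10148474 and 40850106 counts in 11 rats, and blast-control rat 6 had 74008. In rat 6, 3 counts, taken as the smallest detected value, came to 47.5 CPM (a count scaled to the size of its library, here with TMM factors), against at most 0.307 CPM in any other rat. This floor covers counting error only. The libraries also fell into 2 sets of 6, called sheets here after the suffixes in the library names, where each suffix from 1 to 6 occurs on 2 libraries. Putting each suffix once in each sheet allows 32 splits, and 4 of them also have rat numbers that rise with the suffix in both sheets. Among these 4 the sheets were assigned from the expression data, and the split used also ranked 1 of the 32 by its share of the first principal component, with 61.9% the next largest share. Sheet A held blast-controls 1, 7 and 9 and blast-boldine rats 20, 32 and 35, and sheet B the other 6. Over 12529 genes in 11 rats the sheets accounted for 95.1% of the first principal component, which held 66.0% of the variance, and treatment for 1.53% of it. What the sheets stand for, a run or a dissection, is not stated in the sources used here.

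Markers of hippocampal neurons were present in all 11 deep libraries. The summed level of 4 CA1 markers lay between 611 and 890 CPM in blast-boldine rats and between 816 and 1031 CPM in blast-controls. For the 4 genes listed for CA3 (Grik4, Iyd, Bok and Pou3f1, the last not particular to CA3) the sum was 173 to 223 and 159 to 260 CPM. That of 4 dentate gyrus markers was 240 to 411 and 222 to 407 CPM. The 7 layer markers together came to 171 to 243 CPM in blast-boldine rats and 200 to 256 CPM in blast-controls.

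Of the layer markers, Tbr1, a T-box transcription factor of layer 6 neurons, lies on chromosome 3 at 46351213-46361040 of mRatBN7.2 on the plus strand. Rprm (reprimo, a layer 6 marker with 1 exon) lies on the minus strand of the same chromosome at 38539581-38540998, and Lamp5, a lysosome-associated membrane protein of upper layers, on its plus strand at 123372462-123384970. Foxp2, a forkhead factor of layer 6, spans chr4:43133912-43711683, and Fezf2, the zinc finger factor of layer 5 neurons that project to the spinal cord, chr15:12773762-12777554, both on the plus strand. Rorb, a nuclear receptor of layer 4, spans chr1:216363629-216544390 on the minus strand, and Cux2, a homeodomain factor of layers 2 to 4, chr12:34520959-34705806 on the plus strand. None of the 7 overlapped another gene of the count table.

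Tbr1 and Rorb, which had the highest correlation with each other from rat to rat, mark different layers. Their promoters are shown as the RefSeq sequence of GRCr8, another build than that of the counts, from 250 bases before to 50 after the start of the gene, on the strand of the gene. Capitals mark CCAAT or its reverse complement ATTGG. The Tbr1 window is chr3:66759553-66759852 on the plus strand and the Rorb window chr1:225970924-225971223 on the minus strand.
Tbr1: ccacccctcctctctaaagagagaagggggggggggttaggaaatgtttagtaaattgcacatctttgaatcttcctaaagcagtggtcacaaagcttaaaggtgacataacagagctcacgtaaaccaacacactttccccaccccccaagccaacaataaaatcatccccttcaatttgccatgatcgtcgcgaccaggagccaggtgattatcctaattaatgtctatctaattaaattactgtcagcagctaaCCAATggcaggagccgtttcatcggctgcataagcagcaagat
Rorb: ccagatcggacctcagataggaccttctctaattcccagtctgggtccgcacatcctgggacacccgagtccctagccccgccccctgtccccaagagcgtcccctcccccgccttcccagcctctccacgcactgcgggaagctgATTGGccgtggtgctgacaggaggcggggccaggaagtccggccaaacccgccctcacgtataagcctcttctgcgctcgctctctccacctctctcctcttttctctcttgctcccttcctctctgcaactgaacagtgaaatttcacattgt
The match lies at base 258 of the window in Tbr1 and at base 147 in Rorb. CCAAT, on either strand, was found in 3 of the 6 layer markers with a promoter in the table (Tbr1, Rorb and Lamp5) and in 37.5% of all 33469 promoters. The GC box GGGCGG, on either strand, was found in 4 of the 6 (Fezf2, Rorb, Cux2 and Rprm) against 33.1% of all promoters. The ROR site AGGTCA was found only in Rprm among the 6, against 16.2% of promoters, and the T-box site GGTGTGA in 0 of the 6, against 3.83%. In GC content the Tbr1 window, at 45.3%, stood below the Rorb window, at 60.7%. A match of letters is a description of the window and does not show binding.

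Levels of different genes were compared per kilobase of exon, as CPM per kb over the 11 deep libraries. Lamp5 had the highest median, 26.4 CPM per kb (15.5 to 30.9), and lay above Rorb in 11 of 11 rats. Rorb followed with 18.7 CPM per kb (12.7 to 23.3) and lay above Fezf2 in 10 of 11 rats. Fezf2, at 12.9 CPM per kb (10.8 to 15.8), and Tbr1, at 12.6 CPM per kb (8.63 to 17.001), could not be ordered, with Fezf2 the higher in 6 of 11 rats. Cux2 lay lower, at 7.46 CPM per kb (2.91 to 12.7), under Tbr1 in 11 of 11 rats. Rprm, at 2.18 CPM per kb (1.119 to 4.75), and Foxp2, at 0.799 CPM per kb (0.541 to 1.49), were the lowest. The layer 6 marker Tbr1 thus stood above the layer 6 markers Rprm and Foxp2 in these libraries.

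Of the deep layer markers, Tbr1 was measured at 64.6, 67.1, 67.4, 60.8 and 41.0 CPM in blast-controls 1, 4, 5, 7 and 9 and at 49.9, 41.8, 65.4, 37.5, 46.0 and 34.2 CPM in blast-boldine rats 12, 17, 19, 20, 32 and 35. The groups overlapped: 4 of the 5 blast-controls lay between 60.8 and 67.4 CPM, rat 9 lay among the blast-boldine rats, and blast-boldine rat 19 lay among the blast-controls. With boldine the mean was 45.8 ± 11.2 (SD, n = 6), and among blast-controls without rat 6 it was 60.2 ± 11.03 (SD, n = 5).

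Rprm was measured at 6.74, 2.57, 4.40, 4.45 and 3.09 CPM in the same 5 blast-controls and at 1.68, 1.59, 2.54, 4.51, 3.35 and 2.09 CPM in the 6 blast-boldine rats. Rats 12, 17, 19 and 35 of the blast-boldine group fell beneath all 5 blast-controls, and rats 20 and 32 lay among them. The mean with boldine was 2.63 ± 1.13 (SD, n = 6) and that without it 4.25 ± 1.62 (SD, n = 5).

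Foxp2 was measured at 7.02, 3.65, 10.03, 5.396 and 3.75 CPM in blast-controls and at 4.22, 5.55, 6.85, 4.24, 4.78 and 5.42 CPM in blast-boldine rats. All blast-boldine values fell inside the range of the blast-controls, which was set by rat 4 at its low end and rat 5 at its high end. Fezf2, the layer 5 factor, was measured at 23.1, 32.2, 22.4, 30.9 and 24.9 CPM in blast-controls and at 26.8, 23.2, 29.5, 32.7, 27.9 and 23.1 CPM in blast-boldine rats. Its means, 26.7 ± 4.52 (SD, n = 5) and 27.2 ± 3.71 (SD, n = 6), differed by less than the spread between rats.

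Of the upper layer markers, Cux2 was measured at 47.8, 43.6, 59.9, 38.0 and 32.8 CPM in blast-controls and at 46.6, 33.9, 64.7, 14.8, 35.9 and 22.2 CPM in blast-boldine rats. Blast-boldine rats held both the lowest value (rat 20) and the highest (rat 19). Its mean was 36.4 ± 17.8 (SD, n = 6) with boldine and 44.4 ± 10.4 (SD, n = 5) without.

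Rorb, the layer 4 receptor, was measured at 49.9, 36.1, 32.9, 55.2 and 44.3 CPM in blast-controls and at 36.1, 30.1, 37.3, 44.8, 50.8 and 46.2 CPM in blast-boldine rats. Lamp5 was measured at 56.8, 28.5, 38.8, 50.1 and 50.6 CPM in blast-controls and at 37.9, 35.3, 36.9, 48.5, 52.9 and 48.7 CPM in blast-boldine rats. In both genes the low values were those of rats 4, 5, 12, 17 and 19, of both treatments, which are the rats of sheet B.

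**Figure D1:**
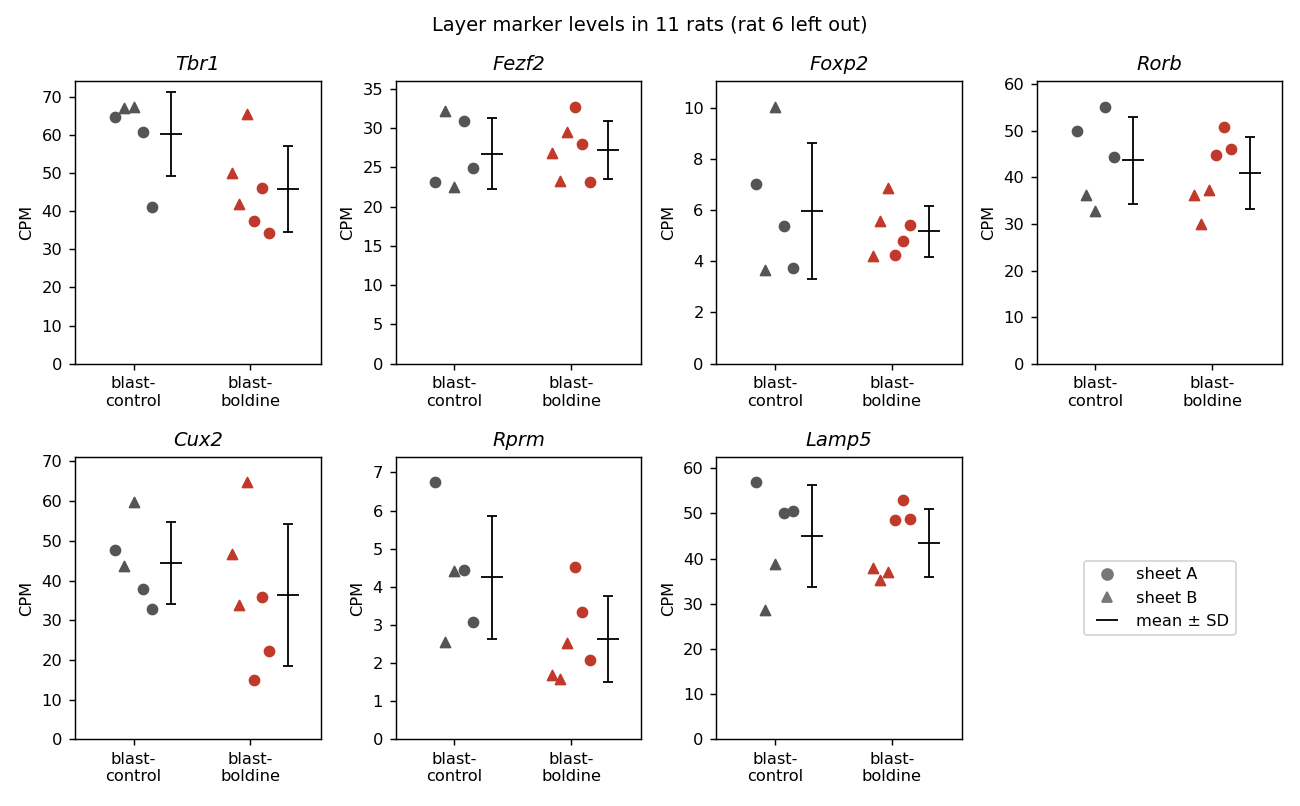
Level of each layer marker in CPM (vertical axis, from 0) in blast-controls and blast-boldine rats, 1 point per rat, with the shape giving the sheet and the bar the mean ± SD of 5 and 6 rats. The groups overlap in all 7 genes, and in Rorb and Lamp5 the points of sheet B lie below all points of sheet A.

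In rat 6, Tbr1 had 2 counts, Rorb 3, Cux2 3 and the other 4 markers 0, so no level under 47.5 CPM could be seen there. With rat 6 counted, the blast-control mean of Tbr1 came to 55.4 ± 15.3 CPM (SD, n = 6).

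On the log2 scale of the edgeR fit, 5 of the 7 layer markers had a lower estimate in blast-boldine rats, against 48.7% of the 12325 genes tested, and 6 of 7 without rat 6, against 50.3% of 12529 genes. In 5 of the 7 genes the estimate was smaller than its SE. Rprm had the largest difference, -0.69 (SE 0.31), followed by Tbr1 at -0.36 (SE 0.19), Cux2 at -0.29 (SE 0.31), Foxp2 at -0.20 (SE 0.27) and Rorb at -0.10 (SE 0.17). The differences of Fezf2, 0.07 (SE 0.20), and Lamp5, 0.01 (SE 0.24), were close to 0. Single rats moved these estimates. Foxp2 was at 0.05 without rat 5. Cux2 was at -0.12 without rat 20, -0.16 without rat 5, -0.18 without rat 35 and -0.53 without rat 19, and Rprm was at -0.45 without rat 1. Tbr1 lay between -0.48 and -0.28 with any 1 rat left out. None of the 7 genes was separate between treatments in the 11 deep libraries, against 0.146% of all genes.

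Without rat 6 the differences were -0.70 (SE 0.32) for Rprm, -0.40 (SE 0.19) for Tbr1 and -0.29 (SE 0.33) for Cux2, and with the sheet as a covariate in all 12 rats they were -0.66 (SE 0.25), -0.43 (SE 0.14) and -0.43 (SE 0.22). With the sheet, 5 of the 7 estimates were lower, against 51.6% of all genes. Within sheets, Tbr1 differed by -0.48 in sheet A and -0.39 in sheet B, and Rprm by -0.50 and -0.79. Cux2 differed by -0.77 in sheet A and -0.13 in sheet B. Fezf2 (0.08 and -0.03), Rorb (-0.07 and -0.01) and Lamp5 (-0.07 and 0.14) differed little in either sheet. The layer 6 marker Foxp2 differed by -0.12 and -0.16. The order of the differences changed with the fit: Tbr1 lay further from 0 than Cux2 in the fit with treatment alone, whereas Cux2 was level with Tbr1 once the sheet was a covariate and had the largest difference of the 7 in sheet A.

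Across all genes, edgeR's quasi-likelihood test called 0 of 12325 genes at an adjusted p under 0.05. At an unadjusted p under 0.05 it gave 132 genes and DESeq2 gave 85, with 0 called by DESeq2 after adjustment.

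**Figure D2:**
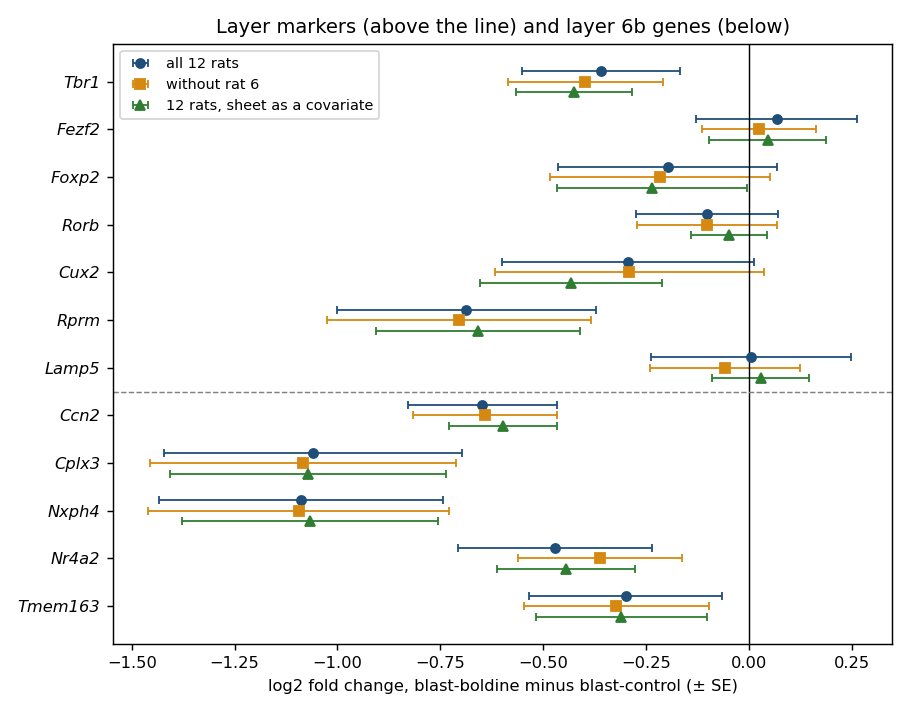
Log2 fold change of blast-boldine against blast-control rats (horizontal axis, bars ± SE) for the 7 layer markers and 5 layer 6b genes, from all 12 rats, without rat 6, and with the sheet as a covariate. Tbr1 and Rprm lie left of 0 in the 3 fits, Fezf2 and Lamp5 lie at 0, and the layer 6b genes lie left of 0.

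The layer markers differed between sheets in opposite directions. As a description, since the sheets were drawn from these data, Rorb differed by -0.47 (SE 0.09) between sheet B and sheet A on the log2 scale, Lamp5 by -0.52 (SE 0.09) and Rprm by -0.63 (SE 0.27), each lower in sheet B. In the same comparison Cux2 differed by 0.74 (SE 0.24), Tbr1 by 0.36 (SE 0.14) and Foxp2 by 0.26 (SE 0.24), each higher in sheet B, and Fezf2 by -0.00 (SE 0.13). In Rorb, for example, the mean was 48.5 ± 4.22 CPM (SD, n = 6) in sheet A and 34.5 ± 2.99 CPM (SD, n = 5) in sheet B. The sheets did not overlap in 2 of the 7 genes, Rorb and Lamp5, against 49.1% of all genes. Genes of the same layer thus parted between sheets, with the layer 6 markers Tbr1 and Rprm on opposite sides.

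To ask whether the layer markers vary together from rat to rat, as genes carried by a varying share of cortical tissue would, log2 CPM were centred within each combination of sheet and treatment over the 11 deep libraries. Centring takes out the difference between treatments and that between sheets, and with them any difference in tissue share between treatments or between sheets. What was left was correlated for each of the 21 pairs of genes, and p came from exact two-sided permutations of the rats within these combinations (432 arrangements, with 0.00231 the smallest p possible). The combinations hold 3, 3, 3 and 2 rats, so few rats carry each value. All pairs share the same libraries.

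Of the 21 pairs, 17 had a positive r, and the median r was 0.41 (SE 0.15 from leaving out each rat in turn). Over the 86226 pairs of a layer marker with another gene the median r was 0.001 and 50.1% of the pairs were positive. The values ran from -0.57 to 0.82. An unadjusted p under 0.05 with a positive r was found in 3 pairs, against 3.26% of the pairs of a layer marker with another gene, and after Benjamini-Hochberg adjustment over the 21 pairs 0 pairs passed, with 0.267 the smallest adjusted p.

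The closest pair was Tbr1 and Rorb, markers of layers 6 and 4. Over 11 rats their Pearson r was 0.82 (exact permutation p = 0.0440, adjusted p = 0.300) and Spearman's rho 0.76 (exact permutation p = 0.0718, adjusted p = 0.345). The r was 0.84 in sheet A and 0.81 in sheet B, and 0.64 without the 2 rats farthest from the median of Tbr1 (rats 9 and 19). Without rat 9, r was 0.73 (exact permutation p = 0.139).

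Tbr1 and Cux2, of layers 6 and 2 to 4, had an r of 0.73 (exact permutation p = 0.0208, adjusted p = 0.267) and a rho of 0.79 (exact permutation p = 0.0255, adjusted p = 0.267). The r was 0.63 in sheet A, 0.90 in sheet B and 0.72 without the 2 farthest rats. Cux2 and Lamp5, both of upper layers, had an r of 0.58 (exact permutation p = 0.0255, adjusted p = 0.267) and a rho of 0.73 (exact permutation p = 0.0139, adjusted p = 0.267). Their r was 0.77 in sheet A, 0.56 in sheet B and 0.62 without the 2 farthest rats. With single rats left out, which also leaves fewer arrangements, the exact permutation p of Tbr1 and Rorb rose above 0.05 without rat 9, 12, 17, 19, 20, 32 or 35 (r from 0.73 to 0.88 over all such sets). That of Tbr1 and Cux2 did so without rat 9, 12, 17, 19 or 32 (r from 0.64 to 0.86), and that of Cux2 and Lamp5 without rat 1, 4, 5, 17 or 32 (r from 0.53 to 0.72). Of these pairs, taken by unadjusted p, those with Tbr1 joined different layers and Cux2 and Lamp5 joined upper layers. By r, Tbr1 and Rorb came first of all pairs, whereas Cux2 and Lamp5 came below pairs with a larger p. Foxp2 and Lamp5, at 0.78, and Tbr1 and Rprm, at 0.69, had a higher r than Cux2 and Lamp5.

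Among the 3 layer 6 markers, Tbr1 and Rprm had an r of 0.69 (exact permutation p = 0.0625), Foxp2 and Rprm 0.60 (exact permutation p = 0.141) and Tbr1 and Foxp2 0.41 (exact permutation p = 0.199). The last of these turned to -0.13 without rats 9 and 19. Foxp2 and Lamp5 had an r of 0.78 (exact permutation p = 0.264), which was 0.35 without rats 4 and 5, the pair of blast-controls of sheet B that differed most in both genes. Of the upper layer pairs, Rorb and Cux2 had an r of 0.60 (exact permutation p = 0.0833) and Rorb and Lamp5 -0.02 (exact permutation p = 0.963).

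Fezf2 stood apart in these values. Of its 6 pairs 3 were positive, with r from -0.57 for Lamp5 and -0.54 for Foxp2 to 0.55 for Rorb, whereas 14 of the 15 pairs without Fezf2 were positive. Without rats 4 and 5, the r of Fezf2 was -0.19 with Lamp5 and -0.18 with Foxp2. No test of Fezf2 against the other genes was made.

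**Figure D3:**
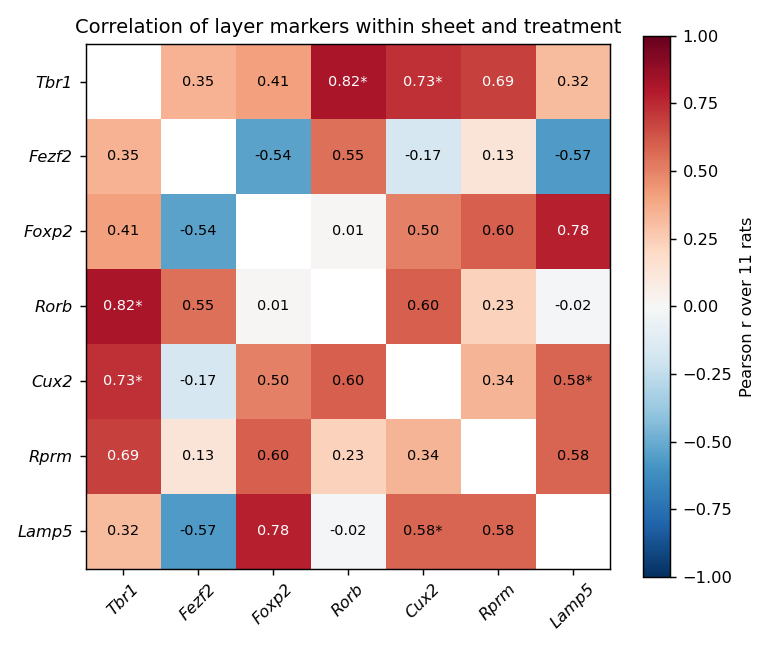
Pearson r of each pair of layer markers over 11 rats, after centring log2 CPM within sheet and treatment, on a colour scale from -1 (blue) to 1 (red). Asterisks mark the 3 pairs with an exact permutation p under 0.05 before adjustment, and 17 of the 21 pairs are positive, with the negative values mostly in the row of Fezf2.

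The variation lay in a few rats. Blast-boldine rat 19 was above the mean of its sheet and treatment in 7 of the 7 genes, and blast-control rat 1 and blast-boldine rat 32 in 6. Blast-control rat 9 was below it in 7 of the 7 genes, and blast-boldine rats 17 and 35 in 6. Rats 7, 12 and 20 were mixed, with 4, 3 and 2 genes above. In rats 4 and 5, which form 1 combination and so mirror each other, 2 and 5 genes were above. The mean over the 7 genes ran from -0.28 in rat 9 to 0.26 in rat 19 on the log2 scale. Centring by itself places rats above and below the mean in every combination, so finding both in each treatment carries no information on treatment.

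**Figure D4:**
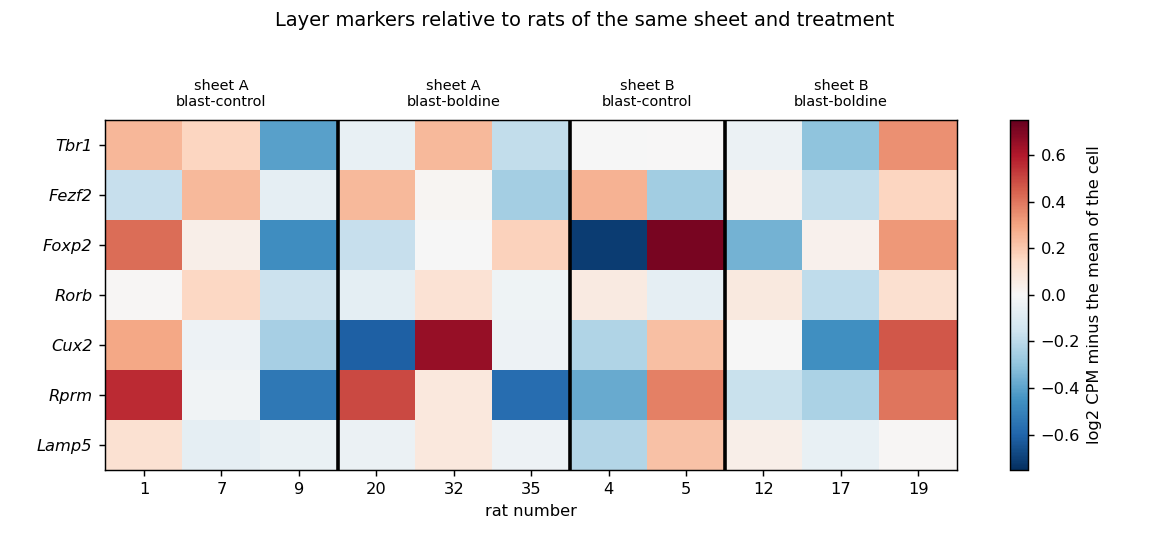
Log2 CPM of each layer marker in each of 11 rats minus the mean of the rats of the same sheet and treatment (red above, blue below). Rats 1, 32 and 19 are red in most rows and rats 9, 35 and 17 blue in most rows. Centring by itself puts both colours in each combination.

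The positive median depended on centring by sheet. Centred within treatment alone, the median r was 0.06, that of Tbr1 and Rorb was -0.29 and that of Cux2 and Lamp5 -0.42, whereas Tbr1 and Cux2 kept a positive r of 0.83. These values hold the difference between sheets, in which Cux2 and Tbr1 were higher and Rorb and Lamp5 lower in sheet B. Under another of the 4 assignments of the sheets, the median r was 0.15. Of the 21 pairs, 15 were positive in both sheets taken singly and 2 were negative in both.

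The layer markers were then set against lists of other genes, over the same 11 rats and with the same centring. The median r over pairs of a layer marker and a list gene was 0.39 for 4 other upper layer genes, 0.40 for 5 genes of layer 6b (the deepest sheet of neurons, next to the white matter) and 0.34 for 3 subiculum genes. It was 0.19 for thalamus, 0.18 for choroid plexus, 0.16 for striatum, 0.06 for CA1 and 0.03 for 6 other deep layer genes. It was negative for the CA3 list, -0.46, interneurons, -0.33, oligodendrocytes, -0.33, and dentate gyrus, -0.25. Within the CA3 list, the mean r with the 7 layer markers was -0.41 for Grik4, -0.48 for Bok and -0.27 for Pou3f1. Pou3f1 is not particular to CA3. Of the CA3 pairs 4 of 21 were positive and of the layer 6b pairs 28 of 35. On the CPM scale a gene group can only gain share if others lose it, and the medians of these lists share the libraries and the 7 layer markers. The SE of the medians from leaving out each rat ran from 0.15 for layer 6b to 0.42 for choroid plexus and was 0.32 for subiculum. Without rat 19 the subiculum median was 0.05, and without rat 9 the median of the other upper layer genes was 0.20, that of interneurons -0.16, that of oligodendrocytes -0.13, that of striatum -0.00 and that of choroid plexus -0.17. The thalamus median was 0.05 without rat 32. The median of layer 6b stayed between 0.30 and 0.47, and that of CA3 between -0.57 and -0.42, with any 1 rat left out.

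Single genes of a list differed widely. Of the 12318 other genes, Ntsr1, the neurotensin receptor of layer 6 neurons that project to the thalamus, had the highest mean r with the 7 layer markers, 0.65, from 0.05 to 0.93, at a mean level of 1.87 CPM. On the same list of deep layer genes, Bcl11b, which is also made in hippocampal neurons, ranked 12181 with a mean r of -0.50, and Tle4 ranked 11310 with -0.38. Among upper layer genes, Cux1 ranked 471 with 0.44 and Rasgrf2 ranked 12152 with -0.50. The CA1 median of 0.06 joined opposite values. With Mpped1 and Fibcd1, r was 0.79 and 0.71 for Fezf2 but -0.89 and -0.92 for Lamp5. With Wfs1 and Man1a1, it was 0.07 and 0.32 for Fezf2 and -0.21 and -0.22 for Lamp5. Bcl11b, Tle4, Cux1, Grik4, Iyd, Fibcd1 and Man1a1 were singled out after their values were seen, as were these CA1 values.

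**Figure D5:**
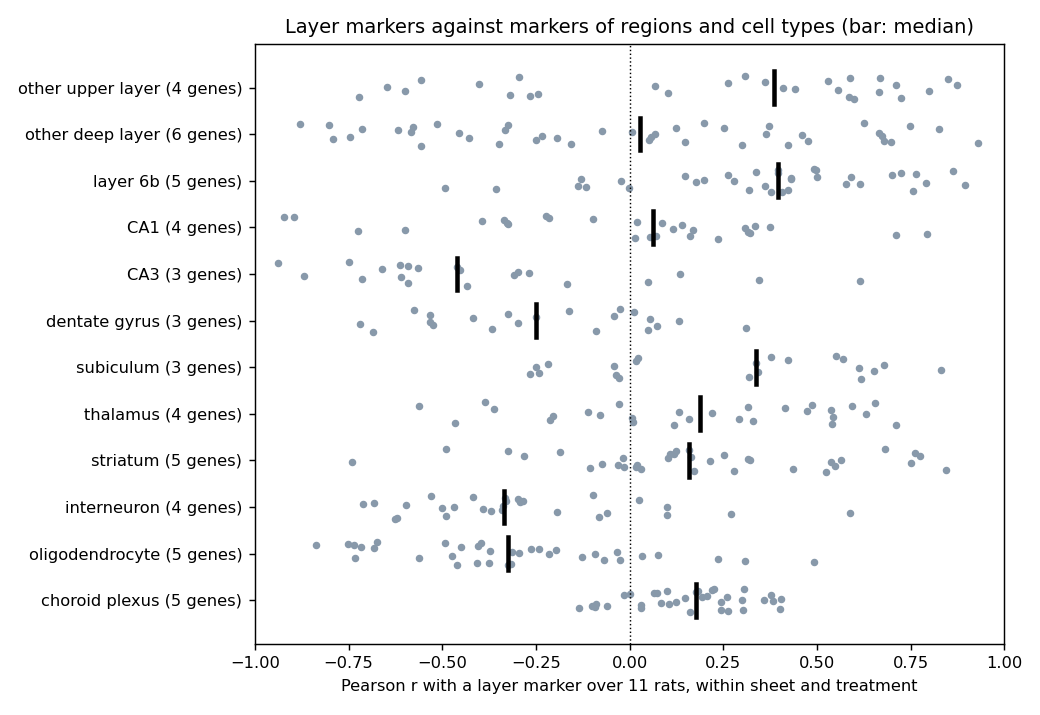
Pearson r over 11 rats (horizontal axis) of each of the 7 layer markers with each gene of 12 marker lists, after centring within sheet and treatment, with a bar at the median of each list. Medians lie at 0.39 and 0.40 for other upper layer and layer 6b genes and at 0.03 for other deep layer genes. The median is -0.46 for the CA3 list, in which Pou3f1 is not particular to CA3. The points of most lists lie on both sides of 0.

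After Ntsr1, the genes with the highest mean r with the 7 layer markers were Olfm2 (0.64), a secreted olfactomedin, Camk2d (0.63), a calmodulin-dependent kinase subunit, and Fxyd6 (0.63), a regulator of the sodium pump. Lower in the same ranking stood Socs2 (0.63), Col9a1 (0.62), Tox2 (0.61), Adamtsl3 (0.61) and Elmo1 (0.61). Of those named here, all but Socs2 had a positive r with 7 of the 7 layer markers, and Socs2 with 6. The genes most like Tbr1 alone were Cbln4, a secreted organizer of synapses, with an r of 0.95, Raph1 (0.95), Scarf2 (0.94), Olfm2 (0.94) and Lzts1 (0.94). They are the top of 12318 genes over 11 rats and carry no test.

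Between treatments, the counts of lower estimates in the other cortical lists depended in part on rat 6. Of the other upper layer genes 2 of 4 had a lower estimate in blast-boldine rats in each of the 3 fits, with Rasgrf2 at 0.19 (SE 0.19) on the log2 scale. Of the other deep layer genes 3 of 6 were lower in all 12 rats, 5 of 6 without rat 6 and 4 of 6 with the sheet as a covariate, with Ntsr1 at -0.66 (SE 0.42) and Parm1 at -0.28 (SE 0.28).

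Of the 5 layer 6b genes tested, 5 had a lower estimate and 3 an unadjusted p under 0.05 in edgeR, with a median of -0.65 on the log2 scale against 0.00 over all genes, and 0 passed adjustment. Some of them were known to be low in these rats when the list was written. Neither the count of lower estimates nor that of small p is therefore independent evidence. Ccn2, a matricellular protein, was 6.49 ± 0.897 CPM (SD, n = 6) with boldine and 10.04 ± 2.52 CPM (SD, n = 5) without it, rat 6 left out, a difference of -0.65 (SE 0.18). Cplx3, a complexin of transmitter release, was 4.29 ± 0.926 and 9.02 ± 5.43 CPM (SD, n = 6 and 5), a difference of -1.06 (SE 0.36). Nxph4, a neurexin ligand, was 0.447 ± 0.1999 and 0.932 ± 0.406 CPM (SD, n = 6 and 5), a difference of -1.09 (SE 0.35).

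In Ccn2 and Nxph4, 5 of the 6 rats on boldine were lower than the lowest of the 5 deep blast-controls, and in Cplx3, 0 were. Nxph4 lay at or near the floor. It had 3 counts, the floor, in rats 12 and 17 and 7, 12, 16 and 8 in rats 19, 20, 32 and 35. In blast-controls 4, 5, 7 and 9 it had 7, 8, 16 and 8 counts, and in rat 1, the deepest library, 75. Nr4a2, a nuclear receptor also made in the claustrum, differed by -0.47 (SE 0.24) and Tmem163, a zinc transporter, by -0.30 (SE 0.23). The study also named Nr4a2, among its candidate transcription factors regulated by activity. Without rat 6, 3 of the 5 again had an unadjusted p under 0.05 in edgeR, and with the sheet as a covariate 4 had. Of all genes, 0.519%, 0.846% and 2.31% were lower at that level in the 3 fits. The list was written with some of these values known, so this comparison is a description and not a test.

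Of the lists of neighbouring tissue, 2 of the 3 subiculum genes were lower in all 12 rats, 1 without rat 6 and 2 with the sheet, and Slc17a6, the vesicular glutamate transporter of subiculum and thalamus that the study also named, differed by -0.64 (SE 0.27). Of the 4 CA1 genes 3, 4 and 3 were lower in these fits, with Wfs1 at -0.35 (SE 0.17) and Mpped1 at -0.12 (SE 0.35), and of the 4 thalamus genes tested 2, 2 and 3 were. Lower estimates were found for 1, 2 and 2 of 3 CA3 genes, for 2, 1 and 2 of 3 dentate gyrus genes and for 4, 3 and 5 of 5 striatum genes, in the same order of fits. They were found for 1, 2 and 0 of 4 interneuron genes, for 3, 5 and 3 of 5 oligodendrocyte genes and for 1, 1 and 0 of 5 choroid plexus genes. The summed choroid plexus markers, a tissue that lies against the hippocampus, ran from 10.5 to 1190 CPM in blast-boldine rats and from 14.8 to 1152 CPM in blast-controls. Their part in the layer marker levels was not tested.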

How the data were processed

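The authors removed PCR duplicates, trimmed the reads and dropped those under 50 bp with HTStream 1.3.3, aligned them to mRatBN7.2 with STAR 2.7.11b, allowing up to 20 alignments per read, and counted reads on exons by gene name and strand with featureCounts of Subread 2.0.1. The deposited values are these raw counts, without normalization. The counting command the authors give has no option to count reads with multiple alignments. Reads that match several paralogs may therefore be missing from the counts. Nothing was realigned here. Conditions, rat numbers and library suffixes came from the labels, and each rat is 1 library.

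Treatments were compared gene by gene with edgeR 4.0.16 (R 4.3.3), by its quasi-likelihood F test on all 12 rats with treatment alone in the model, TMM scaling, filterByExpr with a minimum of 10 counts, and two-sided p adjusted by Benjamini-Hochberg at 0.05. Log2 CPM add a prior count of 2. Correlations used exact permutations within sheet and treatment, in Python 3.11.15 with numpy 2.4.6, pandas 2.3.3 and scipy 1.17.1, and plots matplotlib 3.10.9. Both methods were tested on simulated data. The alternatives were DESeq2 1.42.0, RLE size factors, no filter, the sheet as a covariate, another prior count of 0.5, other centring, other sheet assignments and leaving out each rat. Leaving out rats 4 and 5 together was added after the data were seen.

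The layer markers and lists were chosen with earlier results of these data known. The genes named are the 7 layer markers, the layer 6b genes, of every other list the 2 with the smallest unadjusted p (given in the text for cortical, CA1 and subiculum lists where they bear on a result), the 10 with the highest mean r and the 5 most like Tbr1, and some genes this rule picks are not reported here. Of the listed genes, Deptor, Tshz2, Moxd1, Dsp and Ndnf were not analysed here. Promoters came from RefSeq on GRCr8, with Foxp2 not among them.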

Additional observations from a re-analysis of the deposited data

Results flagged for a closer look

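The Tbr1 level of blast-control rat 9, 41.0 CPM, lay far from the other 4 deep blast-control libraries (60.8 to 67.4 CPM) by Dixon's criterion. It was the 1 outlier among 14 groups of values, where chance gives about 1 in 20. In the same rat 7 of the 7 layer markers were below the mean of their sheet and treatment.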

How the results depend on the processing

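Rat 6 limits what its library can show to levels above 47.5 CPM, and combinations of 2 or 3 rats leave few arrangements for the correlations. No paired analysis was possible because the groups share no rat number. The count of genes at an adjusted p under 0.05 was 0 in each of 17 alternatives. That at an unadjusted p under 0.05, 132, was 254 with no filter, 474 with the sheet as a covariate, 670 with the sheet and without rat 6 and 85 with DESeq2. It ran from 85 (without rat 12 or rat 17) to 214 (without rat 5) when single rats were left out, with 87 without rat 1. The count of layer markers with a lower estimate stayed at 5 or 6 throughout, and each of the 119 alternative differences of single markers moved by less than 1 SD. A move of that size can still change a sign. Foxp2 went from -0.20 to 0.05 without rat 5, and Lamp5 ran from -0.10 to 0.12 when single rats were left out. The sign of the other layer markers did not change.

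The median r of the layer markers, 0.41, was 0.064 when centred within treatment only and 0.15 under 2 other sheet assignments, which give the same combinations of rats. It lay between 0.36 and 0.52 when single rats were left out, and 17 of 20 alternatives moved it by less than its SE. The r of Tbr1 and Rorb turned to -0.29 when centred within treatment only and to -0.18 with all 12 rats, and that of Cux2 and Lamp5 to -0.42 when centred within treatment only and to -0.16 under the other assignments. Of 240 alternatives of the list medians, 223 moved by less than 1 SE. Centred within treatment only, the medians were -0.19 for other upper layer, 0.19 for layer 6b, 0.096 for CA3, -0.045 for subiculum, -0.044 for interneuron and 0.063 for oligodendrocyte genes. Under the other assignments they were 0.047 for other upper layer and -0.21 for CA3 genes. With all 12 rats, where 3 counts in rat 6 exceed most levels, they were 0.84 for other deep layer, 0.36 for CA1, 0.36 for CA3, -0.18 for subiculum, -0.061 for thalamus, 0.67 for interneuron and 0.15 for oligodendrocyte genes. The cause of these shifts was not tested.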
